A study of Mus musculus with 12 samples.

Results

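The genes described here are 38 genes of the antioxidant program driven by the transcription factor NRF2 and of heme and iron handling, taken by symbol from the table of 35050 rows; each had 1 row and all 38 passed the filter on low counts. They were measured by bulk RNA sequencing of poly(A) RNA from mouse peritoneal macrophages in 4 groups of 3 libraries, which the labels describe as biological replicates. KO cells came from mice labelled Mac-Ern1KO, a knockout of Ern1, the gene of the endoplasmic reticulum stress sensor IRE1α, and WT cells from Ern1fl/fl mice, which carry the floxed gene; the labels do not name the Cre driver. R300 cells had been kept for 2 h with platelets opsonized by R300, an antibody to the platelet glycoprotein CD42. Blank cells carry the treatment label Con, which does not say whether plain platelets or none were added. The groups are therefore R300 KO, blank KO, R300 WT and blank WT. All mice were 8-week-old males whose macrophages were elicited by 3% Brewer thioglycolate, injected into the peritoneum 3 days earlier.

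NRF2, the product of Nfe2l2, is held in the cytoplasm and sent for degradation by KEAP1, whose cysteines react with oxidants and electrophiles. Freed NRF2 pairs with small MAF proteins such as MAFG at antioxidant response elements and switches on genes for glutathione, thioredoxin, NADPH and heme breakdown, while BACH1 represses many of the same genes until it binds heme. Macrophages use these genes when they digest blood cells: heme oxygenase (Hmox1) opens the heme ring, ferritin (Fth1, Ftl1) stores the iron and ferroportin (Slc40a1) exports it.

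Promoter sequences are shown for Srxn1, which was higher with R300 in both genotypes, and for 4 members that carry either or both of the motifs named below and were not called in either genotype. The sequences are RefSeq's for GRCm38.p6, matched by symbol for 31 of the 38 members; Gclc, Hmox1, Slc40a1, Slc48a1, Gsr, Abcc1 and Prdx6 were not matched. Capitals mark the letters of 2 motifs: the core of the antioxidant response element, TGACNNNGC or its reverse complement GCNNNGTCA, searched on both strands, and TGANTCA, which is its own reverse complement. The motifs overlap in Prdx1 and Me1. Gclm and Txnrd1 hold only the core of the antioxidant response element, which Srxn1 holds only beyond the bases shown. For Srxn1 (chr2:152105274-152105523, plus strand) and Prdx1 (chr4:116685349-116685598, plus strand) the 250 bases before the start are given, and for the others the motif with 10 bases on each side: Gclm (chr3:122245413-122245441, plus strand), Txnrd1 (chr10:82859104-82859132, plus strand) and Me1 (chr9:86695902-86695930, minus strand).
Srxn1: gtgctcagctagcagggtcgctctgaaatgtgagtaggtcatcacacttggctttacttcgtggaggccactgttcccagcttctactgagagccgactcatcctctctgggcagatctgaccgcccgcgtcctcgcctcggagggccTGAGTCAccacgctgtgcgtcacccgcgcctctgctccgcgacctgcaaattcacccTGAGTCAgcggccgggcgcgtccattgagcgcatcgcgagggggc
Prdx1: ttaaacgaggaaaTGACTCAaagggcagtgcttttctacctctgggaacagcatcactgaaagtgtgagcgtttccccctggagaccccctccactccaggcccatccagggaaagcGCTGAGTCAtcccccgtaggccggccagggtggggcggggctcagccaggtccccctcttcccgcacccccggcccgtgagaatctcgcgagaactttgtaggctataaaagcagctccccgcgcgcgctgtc
Gclm: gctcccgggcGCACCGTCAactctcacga
Txnrd1: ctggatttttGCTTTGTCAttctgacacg
Me1: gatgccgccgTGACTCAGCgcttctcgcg
Srxn1 holds TGAGTCA at 102 and again at 45 bases before the start, and GCTAGGTCA, a match to GCNNNGTCA, at 28 bases after the start, beyond the bases shown. In windows of 300 bases (250 before and 50 after the start), TGACNNNGC was found in 11 of the 31 matched members (35.5%), against 14% of 27025 genes. TGANTCA was found in 4 of the 31 (12.9%; Srxn1, Prdx1, Me1 and Osgin1), against 8.97% of genes. A gene counted if any of its windows held a match, and the 31 members had 42 windows, against 32851 windows for 27025 genes. The members were chosen as genes of the NRF2 program, heme and iron, so these shares are not an independent test of the motifs. Txnrd1 had 3 windows and Me1 had 2, with a match in only 1 window of each. A match describes the letters only.

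Library totals ran from 21765586 to 44273655 counts. Xist, the transcript of the inactive X of female cells, stood at 143 to 590 CPM (counts scaled to library size) in 8 libraries, although the mice are labelled male; the other 4 (R300 KO 3, blank KO 3, R300 WT 2 and blank WT 3, so 1 in each group) held under 1 CPM and are called the libraries without Xist. Erythroid marker genes (10 listed, all detected) summed to 2.74 to 10.6 CPM in the libraries without Xist and to 60.5 to 323 CPM in the others, and platelet markers (9 of 10 in the table, all detected, mostly Pf4) to 52.2 to 68.4 CPM and 87.4 to 125 CPM. Single platelet markers differed in direction. Pf4 had 40.2 to 59.4 CPM without Xist and 77.2 to 113.8 CPM with it. Ppbp had 0.796 to 1.075 CPM without Xist and 1.225 to 4.497 CPM with it. Gp1ba went the other way, with 2.13 to 2.527 CPM without Xist and 0.969 to 1.979 CPM with it. The other platelet markers overlapped. Platelet markers came to 100 to 125 CPM with R300 and 87.4 to 105 CPM in blank among the libraries with Xist, and to 52.4 to 68.4 CPM and 52.2 to 63.6 CPM among those without; their part in the R300 response was not tested. Macrophage markers (8 of 8 detected) summed to 11000 to 14700 CPM in KO libraries and 17300 to 19100 CPM in WT libraries. Most of that difference was in Lyz2, the lysozyme gene, with 6058 to 7317 CPM in KO and 12180 to 13520 CPM in WT libraries. R300 WT 1 and 3 were nearly alike, as were R300 KO 1 and 2: their median chi-square per gene was 1.45 and 1.65, against 7.89 to 14 for other pairs within a group. Ern1 itself did not fall in libraries with the KO label: 235, 225 and 175 CPM in R300 KO against 204, 138 and 205 CPM in R300 WT, and 150, 155 and 116 CPM in blank KO against 113, 117 and 94.1 CPM in blank WT. All values are CPM after TMM scaling, in the order of replicates 1, 2 and 3. In bulk RNA, fewer cells of a type and less RNA per cell cannot be told apart.

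Contact with R300-opsonized platelets went with more Srxn1 and Gclc transcript in both genotypes, and no member was called lower when all 12 libraries were fitted with 1 mean per group (0.139% of all genes fell in KO and 0.0725% in WT). By edgeR's quasi-likelihood test with Benjamini-Hochberg adjustment over 16546 genes, 2 of 38 members were called in KO (both higher; 0.834% of all genes were called, 0.695% as higher) and 2 of 38 in WT (both higher; 0.623% of all genes called, 0.55% as higher). They were the same genes. Averaged over the genotypes, which uses the same libraries again, 3 of 38 were called, all higher, against 3.64% of all genes (2.43% as higher and 1.21% as lower), the added gene being Slc11a1. Of all genes called, 66.7% were higher in the average and 83.3% in KO, against 49.6% and 72.9% with library totals as the scaling. The members' median log2 fold change was 0.16 in KO, with 28 of 38 above 0, and 0.06 in WT, with 26 of 38 above 0; over all genes 49.3% were above 0 in KO and 49.1% in WT. With 1 library left out or library totals as the scaling, the median was lowest at 0.08 in KO (without blank KO 2, 24 of 38 above 0) and 0.02 in WT (library totals only, 23 of 38 above 0; 0.03 without blank WT 2). Under library totals all genes had a median of -0.05 in WT. Every R300 KO library lay above every blank KO library for 8 members (6.64% of all genes), and every R300 WT library above every blank WT library for 5 (6.74% of all genes): Gclc, Srxn1, Txn1, Fth1 and Slc11a1, which were also among the 8 in KO. The other 3 in KO were Taldo1, Gpx4 and Sod1. No member lay wholly below in KO (5.68% of all genes did), and 1, Tfrc, did in WT (6.09% of all genes).

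Marker lists of some other cells of the peritoneum also changed with R300, but the sums of R300 and blank libraries overlapped except for B cell markers in KO. In the average of the genotypes all 6 mast cell and eosinophil markers tested (10 listed, none at 0) were above 0, with a median of log2 0.81, and 2 were called higher, the mast cell proteases Mcpt4 (log2 1.14, adjusted p = 0.0428) and Tpsb2 (log2 0.88, adjusted p = 0.0231). Their summed level was 30.1 to 73.7 CPM in R300 KO against 22.9 to 58.0 CPM in blank KO, and 33.9 to 38.7 CPM in R300 WT against 11.9 to 41.3 CPM in blank WT. All 9 mesothelial and fibroblast markers tested (10 listed, none at 0) were also above 0 (median log2 0.83, 0 called). Their sum was 358 to 818 CPM in R300 KO against 360 to 460 CPM in blank KO, and 193 to 1410 CPM in R300 WT against 149 to 660 CPM in blank WT. The 10 B cell markers were all below 0 (median log2 -0.98, 0 called), with sums of 116 to 138 CPM in R300 KO against 152 to 295 CPM in blank KO, and 88.8 to 108 CPM in R300 WT against 91.0 to 321 CPM in blank WT. The highest B cell sum of each blank group was in its blank 2 library (295 CPM in KO and 321 CPM in WT). Of the neutrophil markers tested, 1 of 4 was above 0 (median log2 -0.45, 0 called). The part of these cells in the R300 response of the members was not tested.

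**Figure D1:**
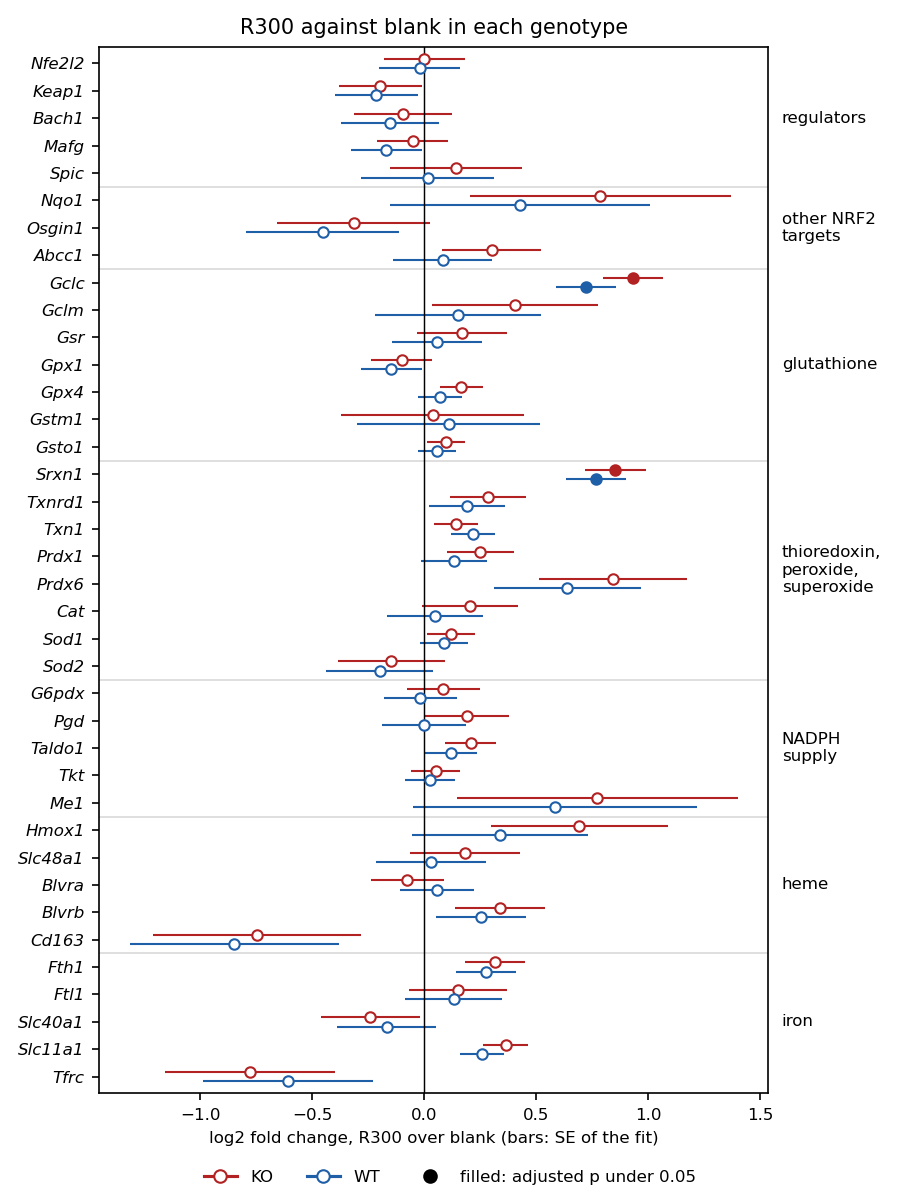
Log2 fold change of R300 over blank (horizontal axis) for the 38 members by role, in KO (red) and WT (blue); bars are the SE of the fit over 3 libraries a group and filled points have an adjusted p under 0.05. Srxn1 and Gclc are the filled points, at 0.85 and 0.93 in KO and 0.77 and 0.72 in WT.

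Srxn1 encodes sulfiredoxin, which restores peroxiredoxins that peroxide has over-oxidized; it lies on chromosome 2 at 152105516 to 152111376 (GRCm38, plus strand). It had 960, 890 and 733 CPM in R300 KO against 480, 466 and 483 CPM in blank KO, and 1001, 768 and 936 CPM in R300 WT against 549, 470 and 570 CPM in blank WT. The groups did not overlap in either genotype, and the lowest R300 value of each genotype was in its library without Xist. Srxn1 was 1.81-fold higher with R300 in KO (log2 0.85, SE 0.14, adjusted p = 0.0160) and 1.70-fold higher in WT (log2 0.77, SE 0.14, adjusted p = 0.0338). Averaged over the genotypes the log2 change was 0.81 (SE 0.10, adjusted p = 0.000968).

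Gclc encodes the catalytic subunit of glutamate-cysteine ligase, the rate-limiting enzyme of glutathione synthesis, and lies on chromosome 9 at 77754535 to 77794485 (plus strand). It had 399, 370 and 284 CPM in R300 KO against 190, 180 and 182 CPM in blank KO, and 354, 277 and 338 CPM in R300 WT against 186, 208 and 193 CPM in blank WT. Again the groups did not overlap, the blank libraries lay close together and the R300 library without Xist was the lowest of its group. Gclc was 1.91-fold higher in R300 KO (log2 0.93, SE 0.14, adjusted p = 0.00920) and 1.65-fold higher in R300 WT (log2 0.72, SE 0.13, adjusted p = 0.0406). Averaged over the genotypes it was 1.77-fold higher (log2 0.83, SE 0.10, adjusted p = 0.000867).

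The averaged calls of Srxn1 and Gclc held in all 21 alternatives, with adjusted p up to 0.0194 for Srxn1 and 0.0174 for Gclc. The calls within 1 genotype were less stable. With 1 library of each near-alike R300 pair, and with only the groups compared, neither gene was called in KO or in WT. Over all alternatives the adjusted p reached 0.310 for Srxn1 and 0.360 for Gclc in WT, and 0.167 and 0.121 in KO. In WT, leaving out any 1 library other than R300 WT 2, blank KO 2 or R300 KO 3 ended the call of Srxn1 (adjusted p 0.0508 to 0.181 where lost), and leaving out any other than R300 WT 2 or R300 KO 3 ended that of Gclc (0.0541 to 0.235). In KO, leaving out R300 KO 1 or R300 KO 2 ended that of Gclc (0.0578 and 0.0652), and leaving out either of these or any blank KO library ended that of Srxn1 (0.0579 to 0.103). The log2 changes stayed between 0.65 and 1.06 for both genes in both genotypes.

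**Figure D2:**
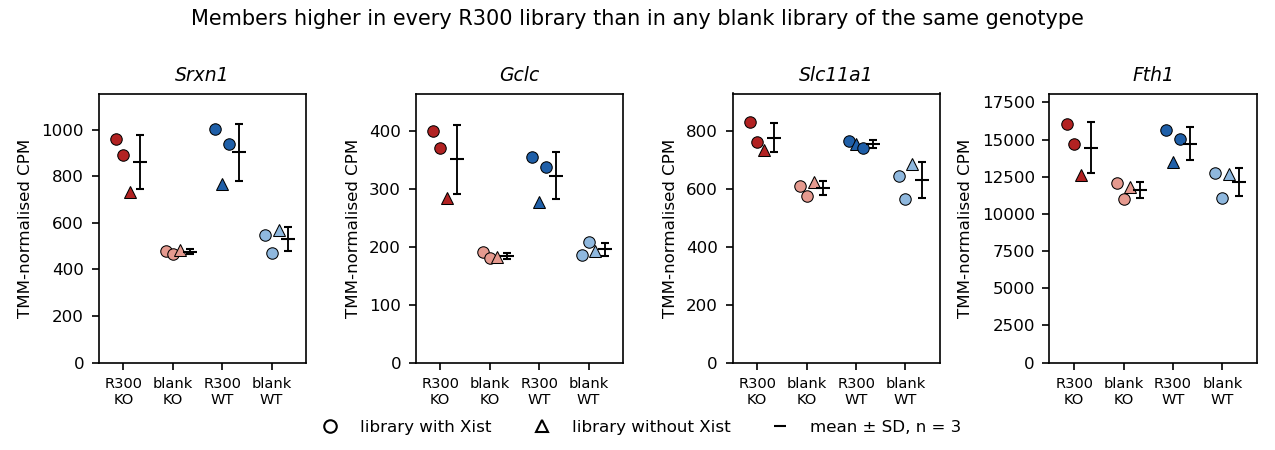
TMM-normalised CPM (vertical axis) of Srxn1, Gclc, Slc11a1 and Fth1 in each of the 12 libraries; triangles are libraries without Xist and bars are the mean and SD of 3 libraries. For all 4 genes every R300 library lies above every blank library of the same genotype.

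Slc11a1 (NRAMP1) moves iron and other metals out of the phagosome in macrophages; it lies on chromosome 1 at 74375195 to 74386062 (plus strand). It had 833, 764 and 735 CPM in R300 KO against 611, 575 and 625 CPM in blank KO, and 767, 757 and 741 CPM in R300 WT against 645, 564 and 685 CPM in blank WT. No R300 library overlapped a blank library of its genotype, and the R300 WT libraries differed by less than those of any other group. Slc11a1 was called in the average of the genotypes (1.24-fold, log2 0.31, SE 0.07, adjusted p = 0.0345) but not in KO (log2 0.36, adjusted p = 0.172) or WT (log2 0.26, adjusted p = 0.456). The averaged call was lost when any 1 library other than blank WT 3 or R300 KO 3 was left out (adjusted p 0.0517 to 0.110 where lost), with log2 0.26 to 0.38 over all alternatives.

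Fth1, the ferritin heavy chain that oxidizes iron for storage, had 16070, 14700 and 12620 CPM in R300 KO against 12080, 11020 and 11780 CPM in blank KO, and 15650, 13510 and 15010 CPM in R300 WT against 12770, 11080 and 12670 CPM in blank WT. All R300 libraries lay above the blank libraries of their genotype, but the change did not pass the test (average log2 0.29, SE 0.10, adjusted p = 0.136). Txn1, the thioredoxin that reduces protein disulfides, showed the same order with a smaller gap. It had 357, 353 and 336 CPM in R300 KO against 290, 326 and 333 CPM in blank KO, and 376, 368 and 360 CPM in R300 WT against 315, 284 and 349 CPM in blank WT (average log2 0.18, SE 0.07, adjusted p = 0.225). With a term for Xist in the fit (libraries with it or without it), Fth1 was called in the average (log2 0.29, adjusted p = 0.0484, and 0.0191 to 0.569 over the alternatives). Txn1 was not called (log2 0.18, adjusted p = 0.0956, and 0.0590 to 0.642 over the alternatives). The labels do not say what this split marks. With the term, 9.02% of all genes were called in the average, against 3.64% without it. Ftl1, the ferritin light chain, had 4611, 4207 and 5445 CPM in R300 KO against 3855, 3830 and 5167 CPM in blank KO, and 4560, 5593 and 4475 CPM in R300 WT against 4369, 3179 and 5809 CPM in blank WT. Its groups overlapped, and its highest value in each of the 4 groups was in the library without Xist.

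The textbook NRF2 and heme-responsive genes Hmox1, Nqo1 and Gclm each had a wider spread within each R300 group, as SD, than the distance of its mean from that of the blank group. Hmox1 had 2463, 2332 and 986 CPM in R300 KO against 1761, 944 and 871 CPM in blank KO, and 1932, 941 and 1812 CPM in R300 WT against 1401, 1362 and 946 CPM in blank WT. Its 4 R300 libraries with Xist were above every other library, while the 4 libraries without Xist held 871 to 986 CPM whether with R300 or blank, so the groups overlapped. The log2 change was 0.69 in KO (SE 0.40, adjusted p = 0.734) and 0.34 in WT (SE 0.39, adjusted p = 0.908). Over the alternatives it ran from 0.37 to 1.09 in KO (the highest without blank KO 1) and from 0.16 (without R300 WT 1) to 0.60 (without R300 WT 2) in WT, and was called in none. The erythroid marker sum and the platelet marker sum, mostly Pf4, were higher in the libraries with Xist, while the platelet marker Gp1ba was lower there, as given above. The part of red cells and platelets in the values of Hmox1, Tfrc and Cd163 was not tested.

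Nqo1, a quinone reductase used as a readout of NRF2, had 26.1, 26.5 and 7.76 CPM in R300 KO against 19.8, 7.88 and 7.40 CPM in blank KO, and 20.7, 6.79 and 23.9 CPM in R300 WT against 18.1, 12.1 and 8.12 CPM in blank WT. Gclm, the modifier subunit that partners Gclc, had 438, 405 and 207 CPM in R300 KO against 415, 176 and 202 CPM in blank KO, and 348, 204 and 338 CPM in R300 WT against 333, 264 and 206 CPM in blank WT. Both genes were high in the R300 libraries with Xist and in the blank 1 library of each genotype, and low in the libraries without Xist and in blank KO 2. Neither change passed the test: Nqo1 had log2 0.79 in KO (SE 0.58, adjusted p = 0.850) and 0.43 in WT (SE 0.58, adjusted p = 0.930), and Gclm 0.41 in KO (SE 0.37, adjusted p = 0.916) and 0.15 in WT (SE 0.37, adjusted p = 0.969). Over the alternatives Nqo1 ran from 0.29 to 1.40 in KO (the highest without blank KO 1) and from 0.06 to 0.81 in WT (the highest without R300 WT 2), and was called in none. Gclm thus did not show the order of its partner subunit. In WT its log2 change was -0.01 without blank WT 3.

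Prdx6, a peroxiredoxin that reduces oxidized phospholipids, had 343, 324 and 158 CPM in R300 KO against 208, 122 and 130 CPM in blank KO, and 263, 138 and 248 CPM in R300 WT against 165, 131 and 121 CPM in blank WT. Within each kind of library the R300 values were the higher ones: in libraries without Xist R300 over blank was 1.22 in KO and 1.14 in WT, and in libraries with Xist the ratio of means was 2.02 in KO and 1.73 in WT. The average log2 change of Prdx6 was 0.74 (SE 0.23, adjusted p = 0.125), and 0.68 with the term for Xist (adjusted p = 0.0219, and 0.00764 to 0.555 over the alternatives). Me1, the malic enzyme that makes NADPH, was low throughout, with 4.69, 6.13 and 2.86 CPM in R300 KO against 5.11, 1.09 and 1.83 CPM in blank KO, and 3.70, 1.21 and 5.66 CPM in R300 WT against 3.11, 2.58 and 1.37 CPM in blank WT. Its groups overlapped in both genotypes and its changes were not called (log2 0.77, SE 0.63 in KO and 0.59, SE 0.63 in WT).

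**Figure D3:**
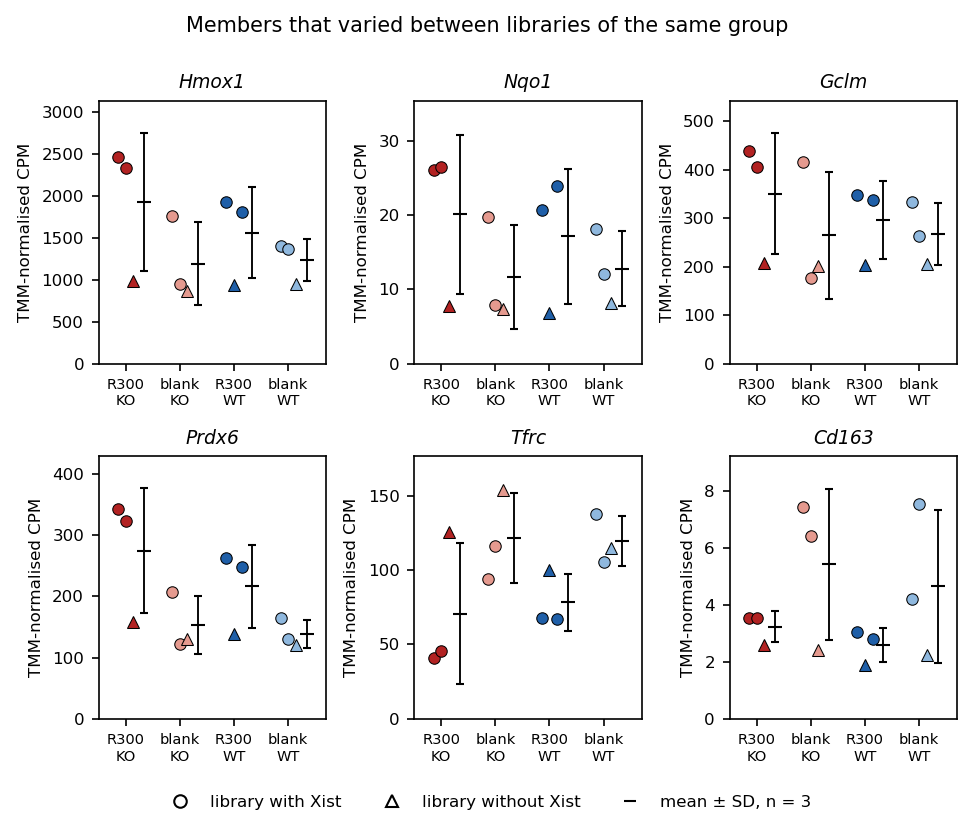
TMM-normalised CPM (vertical axis) of 6 members in each of the 12 libraries; triangles are libraries without Xist and bars are the mean and SD of 3 libraries. Hmox1, Nqo1, Gclm and Prdx6 are high in the circles of the R300 groups and low in the triangles, while Tfrc in KO is lowest in the R300 circles (40.8 and 45.6 CPM).

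The receptors for iron-loaded transferrin and for the hemoglobin-haptoglobin complex had log2 changes below 0 in both genotypes, none of which was called. Tfrc, the transferrin receptor, had 40.8, 45.6 and 126 CPM in R300 KO against 93.7, 116 and 154 CPM in blank KO, and 67.6, 100 and 66.8 CPM in R300 WT against 138, 106 and 115 CPM in blank WT. In WT all R300 libraries lay below all blank libraries; in KO the library R300 KO 3, without Xist, overlapped the blank group. The log2 change of Tfrc was -0.78 in KO (SE 0.38, adjusted p = 0.625) and -0.61 in WT (SE 0.38, adjusted p = 0.743). Without R300 KO 3 it was -1.50 in KO (adjusted p = 0.0199, and 0.0140 to 1.00 over the alternatives). With the term for Xist the averaged fall was called (log2 -0.78, adjusted p = 0.0310, and 0.00316 to 0.724 over the alternatives). Cd163, the hemoglobin scavenger receptor, was low, with 3.55, 3.54 and 2.61 CPM in R300 KO against 7.45, 6.40 and 2.43 CPM in blank KO, and 3.05, 1.90 and 2.82 CPM in R300 WT against 4.20, 7.53 and 2.23 CPM in blank WT. The blank libraries without Xist overlapped the R300 libraries in both genotypes, and no change was called (log2 -0.75, SE 0.46 in KO and -0.85, SE 0.47 in WT). In libraries without Xist, R300 over blank was 1.07 in KO and 0.856 in WT, and in libraries with Xist the ratio of means was 0.512 in KO and 0.500 in WT. In the 8 libraries with Xist, a selection made after seeing the data, the averaged fall of Cd163 was called (log2 -0.98, adjusted p = 0.0441; 0.0441 to 0.625 over the alternatives).

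The regulators themselves were not called in any comparison when all 12 libraries were fitted with 1 mean per group. Nfe2l2 had 370, 366 and 254 CPM in R300 KO against 306, 392 and 293 CPM in blank KO, and 384, 282 and 369 CPM in R300 WT against 332, 396 and 320 CPM in blank WT. The groups overlapped, and the log2 change with R300 was 0.00 in KO and -0.02 in WT (SE 0.18 in both). Keap1 had 45.3, 44.6 and 40.6 CPM in R300 KO against 58.9, 39.8 and 50.7 CPM in blank KO, and 51.7, 44.5 and 50.7 CPM in R300 WT against 74.9, 46.1 and 49.7 CPM in blank WT. The blank 1 libraries were the highest of each genotype and blank KO 2 the lowest of all, and the log2 change was -0.20 in KO and -0.21 in WT (SE 0.18 in both). Without both blank 2 libraries and with the term for Xist, a setting chosen after seeing the data, Keap1 was called lower with R300 in KO (log2 -0.38, adjusted p = 0.0369, and 0.0369 to 1.00 over the alternatives), in WT (log2 -0.37, adjusted p = 0.0458, and 0.0458 to 1.00) and in the average (log2 -0.38, adjusted p = 0.00372, and 0.00372 to 0.851). At this setting 6.26%, 4.62% and 15.1% of all genes were called. Of the annotated exon bases of Keap1, 10.9% overlap a gene on the opposite strand, and the library kit does not mark strand.

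Bach1, the heme-sensing repressor, had 142, 156 and 239 CPM in R300 KO against 191, 189 and 194 CPM in blank KO, and 150, 242 and 150 CPM in R300 WT against 177, 216 and 209 CPM in blank WT. In each genotype the R300 libraries with Xist were below the blank libraries and the R300 library without Xist was above them, so that the log2 change was -0.09 in KO and -0.15 in WT (SE 0.22 in both). Mafg, the small MAF partner, had 349, 309 and 231 CPM in R300 KO against 337, 323 and 262 CPM in blank KO, and 282, 238 and 272 CPM in R300 WT against 288, 328 and 272 CPM in blank WT. Spic, the factor that heme induces in iron-recycling macrophages of the spleen, was low, with 2.41, 3.40 and 2.58 CPM in R300 KO against 2.39, 2.31 and 2.89 CPM in blank KO, and 3.10, 3.08 and 2.36 CPM in R300 WT against 1.90, 4.19 and 2.30 CPM in blank WT. Neither separated R300 from blank.

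In the glutathione group 1 of 7 members, Gclc, was called, and 6 of 7 had a log2 change above 0 in each genotype; the exception was Gpx1, a peroxide-reducing selenoenzyme (log2 -0.10 in KO and -0.15 in WT). The remaining glutathione members, glutathione reductase Gsr, the lipid peroxidase Gpx4 and the transferases Gstm1 and Gsto1, changed by log2 0.04 to 0.17 in KO and 0.06 to 0.11 in WT. Pseudogene rows of Gpx4 held up to 20.1% as many counts as Gpx4, so its reads may be split between copies. In the thioredoxin, peroxide and superoxide group 1 of 8, Srxn1, was called. Thioredoxin reductase Txnrd1 had 1378, 1268 and 1009 CPM in R300 KO against 1011, 1163 and 822 CPM in blank KO, and 1344, 1065 and 1251 CPM in R300 WT against 1057, 1220 and 932 CPM in blank WT. Its groups overlapped, and its log2 change was 0.29 in KO and 0.19 in WT (SE 0.17 in both). Its average was called with the term for Xist (log2 0.24, adjusted p = 0.0437, and 0.00382 to 0.837 over the alternatives). Prdx1, catalase (Cat) and the cytosolic superoxide dismutase Sod1 lay between 0.12 and 0.25 in KO and 0.05 and 0.13 in WT, while the mitochondrial Sod2 was at -0.15 and -0.20.

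None of the 5 NADPH-supply members was called. G6pdx and Pgd, the oxidative enzymes of the pentose phosphate pathway, and Taldo1 and Tkt, its transferring enzymes, changed by log2 0.05 to 0.21 in KO and -0.02 to 0.12 in WT. G6pdx overlaps a gene on the opposite strand over 13.6% of its exon bases. None of the 5 heme members was called either. The heme transporter Slc48a1, which carries heme out of the phagolysosome, had 251, 223 and 191 CPM in R300 KO against 261, 121 and 206 CPM in blank KO, and 240, 208 and 225 CPM in R300 WT against 264, 170 and 226 CPM in blank WT, with the lowest value in blank KO 2. The biliverdin reductases Blvra and Blvrb, which make bilirubin, changed by -0.08 and 0.34 in KO and 0.06 and 0.25 in WT.

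Among the 5 iron members Slc40a1 (ferroportin) was low, with 5.62, 4.96 and 4.23 CPM in R300 KO against 6.70, 6.28 and 4.50 CPM in blank KO, and 4.66, 4.19 and 4.76 CPM in R300 WT against 5.19, 6.25 and 3.82 CPM in blank WT. Its groups overlapped (log2 -0.24 in KO and -0.17 in WT, SE 0.22 in both). Osgin1, a growth inhibitor induced by oxidative stress, had 32.1, 27.2 and 42.2 CPM in R300 KO against 23.4, 45.2 and 57.7 CPM in blank KO, and 29.3, 40.1 and 27.8 CPM in R300 WT against 27.8, 44.1 and 61.1 CPM in blank WT. The blank groups spanned a wider range than the R300 groups, and the change was not called (log2 -0.32 in KO and -0.45 in WT, SE 0.34 in both). Abcc1, the exporter of glutathione conjugates, changed by log2 0.30 in KO and 0.08 in WT.

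Per kilobase of exon, the members spanned a wide range of levels. The ferritin chains Fth1 and Ftl1 were the most abundant, with means over the 4 groups of 3820 and 3430 CPM per kb, followed by Hmox1 with 845 and Gpx1 with 766. Means of the groups for Hmox1 were 1100 CPM per kb in R300 KO, 681 in blank KO, 892 in R300 WT and 706 in blank WT. Srxn1 ranked 7th with a mean level of 245 CPM per kb and Gclc 15th with 69.9, above Gclm with 46.8. The regulators Nfe2l2, Mafg, Bach1 and Keap1 had 89.2, 51.8, 30.4 and 10.6 CPM per kb. The lowest levels, all under 1 CPM per kb, were those of Me1 (0.852), Cd163 (0.728), Spic (0.714) and Slc40a1 (0.566). Ftl1 overlaps a gene on the opposite strand over 26.5% of its exon bases, so part of its level may be its neighbour's.

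**Figure D4:**
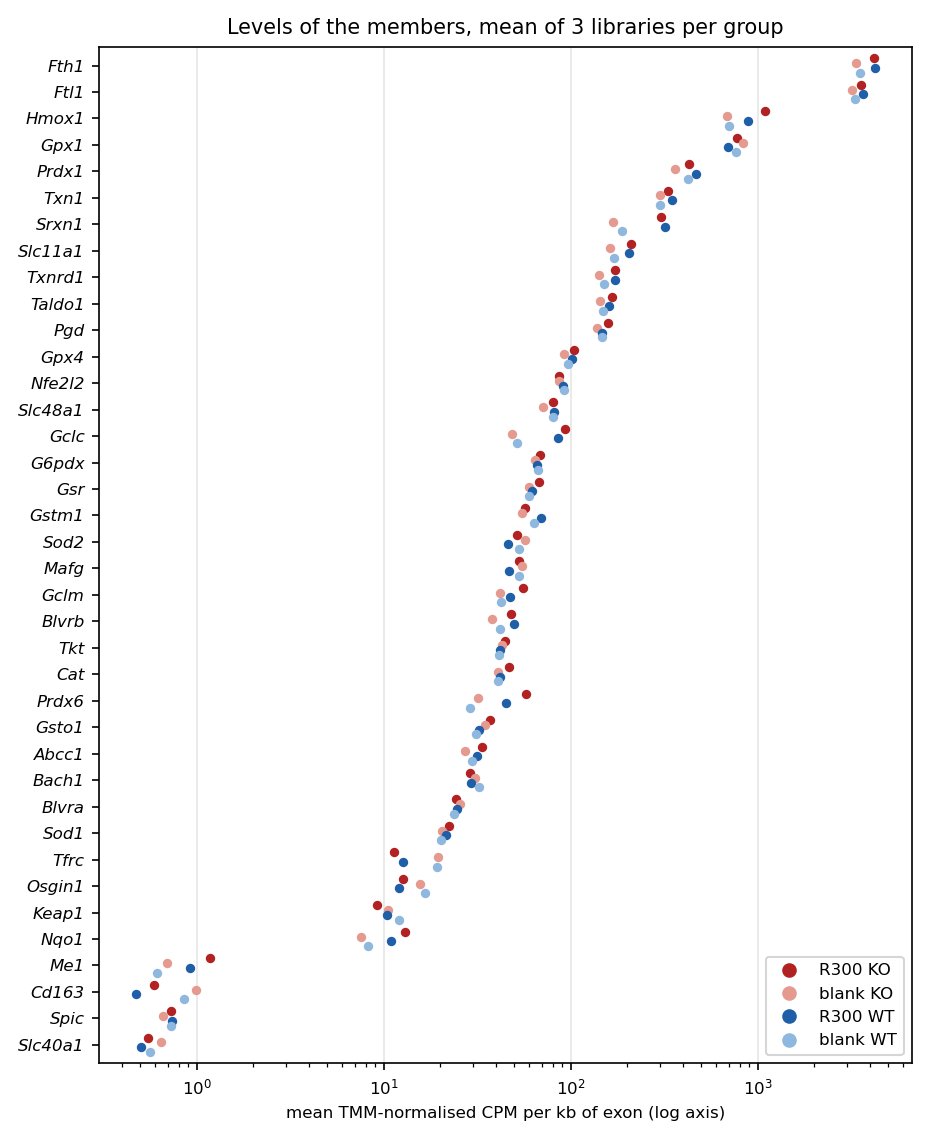
Mean TMM-normalised CPM per kb of exon (horizontal log axis) of each member in the 4 groups of 3 libraries, ordered by the mean over the groups. Fth1 and Ftl1 lie at the top and Slc40a1, Spic, Cd163 and Me1 at the bottom.

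Between genotypes no member was called, in R300 or in blank. Of all genes 0% were called in KO against WT with R300 and 0% in blank, and 0.00604% (1 gene, Lyz2, lower in KO) in the average of the states, which uses the same libraries again. At an unadjusted p under 0.05, 1 member (Gsto1) stood out with R300 and in the average and 0 in blank, against 1.96%, 2.8% and 1.09% of all genes; DESeq2 called 0 members in each of these comparisons. The members' median log2 difference of KO over WT was 0.06 with R300 (23 of 38 above 0) and -0.05 in blank (15 of 38 above 0), against 48.6% and 50.7% of all genes above 0. In blank, 1 library could turn the sign of that median. It was 0.02 without blank KO 2 (21 of 38 above 0), 0.01 without blank WT 1 (19 of 38) and -0.11 without blank KO 1 (10 of 38). With R300 it was 0.02 without R300 KO 1 (21 of 38) and 0.03 without R300 WT 3 (22 of 38). With R300 every KO library lay above every WT library for 2 members, Gsto1 and Tkt (4.03% of all genes), and below for 1, Txn1 (3.87% of all genes). In blank the libraries overlapped for all 38 (3.7% of all genes did not overlap). Same-numbered blank libraries deviated together (correlations 0.614, 0.629 and 0.687 between KO and WT). In all 3 of those pairs 5 members were higher in KO (Gsto1, Gpx1, Tkt, Sod2 and Slc40a1; 12.1% of all genes). Another 8 were lower in all 3 (Prdx1, Srxn1, Txnrd1, Nfe2l2, Taldo1, Fth1, Slc48a1 and Blvrb; 12.7% of all genes). A fit of the 6 blank libraries with these pairs as a block, chosen after seeing the data, called 0 members and 0 of all genes (edgeR). At that setting 1 member, Prdx1, had an unadjusted p under 0.05 (log2 -0.23, SE 0.09, adjusted p = 0.989).

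Gsto1, an omega-class glutathione transferase that also reduces dehydroascorbate, had 77.7, 76.1 and 70.9 CPM in R300 KO against 67.4, 64.3 and 64.9 CPM in R300 WT, and 70.8, 63.0 and 76.1 CPM in blank KO against 61.5, 62.8 and 64.9 CPM in blank WT. Only blank KO 2 among the KO libraries fell within the WT range. The log2 difference was 0.19 with R300 (SE 0.08, adjusted p = 1.00) and 0.15 in blank (SE 0.08, adjusted p = 1.00). The average of the states was called in 1 of 21 alternatives (edgeR, adjusted p = 0.0444), with log2 0.15 to 0.21 over all of them. That setting, without both blank 2 libraries and with the term for Xist, was chosen after seeing the data. It called 2.76% of all genes in the average. Gpx1, with the next lowest p among the members higher in KO, had 1072, 996 and 1286 CPM in R300 KO against 972, 1110 and 904 CPM in R300 WT, and 1047, 1288 and 1261 CPM in blank KO against 1006, 1155 and 1144 CPM in blank WT (log2 0.17 and 0.12, SE 0.14 in both). Its groups overlapped in both states.

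Prdx1, an abundant peroxiredoxin, had the lowest p among members that were lower in KO in blank. It had 1400, 1400 and 1127 CPM in R300 KO against 1503, 1269 and 1473 CPM in R300 WT, and 1193, 945 and 1162 CPM in blank KO against 1448, 1085 and 1337 CPM in blank WT (log2 -0.11 and -0.23, SE 0.15 in both). The groups overlapped in both states. The groups of Srxn1 (log2 -0.07 with R300 and -0.15 in blank) and Keap1 (-0.17 and -0.19) also overlapped in both states. Txn1, whose values are given above, lay lower in all R300 KO libraries than in all R300 WT libraries but overlapped in blank, and its differences were not called (log2 -0.08 with R300 and 0.00 in blank, SE 0.10 in both). Gstm1, a mu-class glutathione transferase, had 65.4, 64.2 and 121 CPM in R300 KO against 78.6, 149 and 78.0 CPM in R300 WT, and 59.5, 68.1 and 117 CPM in blank KO against 77.9, 58.1 and 147 CPM in blank WT. In each group the library without Xist was the highest, and at like Xist status KO was lower than WT, except that blank WT 2 had the lowest value of all (log2 -0.28 with R300 and -0.21 in blank, SE 0.41 in both). Without both blank 2 libraries and with the term for Xist, a setting chosen after seeing the data, Gstm1 was called lower in KO with R300 (log2 -0.28, adjusted p = 0.0185, and 0.0185 to 1.00 over the alternatives) and in blank (log2 -0.36, adjusted p = 0.0260, and 0.0260 to 1.00). At this setting 1.1% of all genes were called with R300 and 0.441% in blank. Lyz2, given above, moved with genotype in all libraries. All 6 mast cell and eosinophil markers tested were above 0 in KO over WT (median log2 0.83 in blank and 0.50 with R300, 0 called). Every R300 KO library lay above every R300 WT library for 3 of 4 neutrophil markers (4.03% of all genes). This held for 4 of 10 B cell markers too. Mesothelial and fibroblast markers were above 0 for 9 of 9 in blank and 1 of 9 with R300. The part of Lyz2 and of these cells in the differences between genotypes was not tested.

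**Figure D5:**
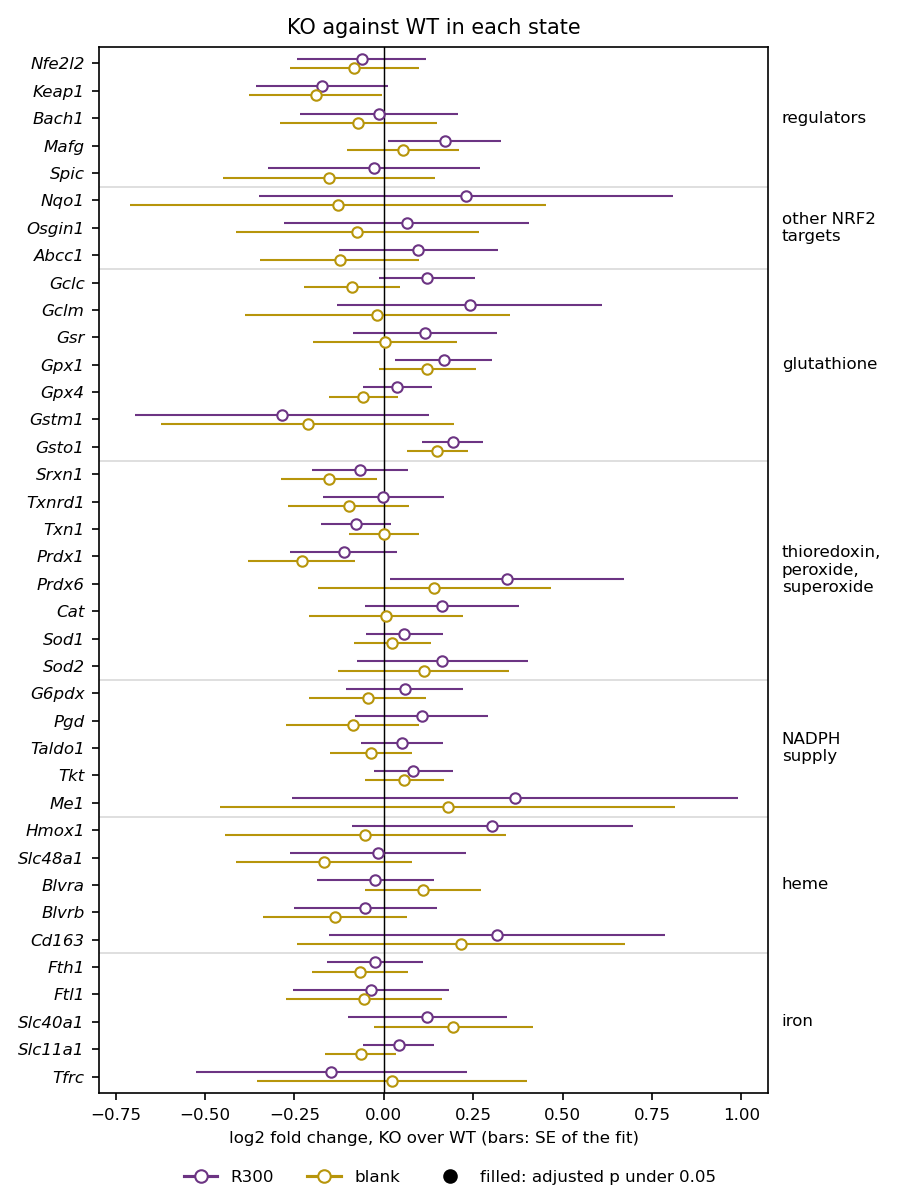
Log2 fold change of KO over WT (horizontal axis) for the 38 members by role, with R300 (purple) and in blank (gold); bars are the SE of the fit over 3 libraries a group. No point is filled, since no adjusted p was under 0.05; Gsto1 lies at 0.19 with R300 and 0.15 in blank.

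The R300 response of KO minus that of WT was above 0 for 33 of 38 members, with a median of 0.10 on the log2 scale, against 48.5% of all genes and a median of -0.01. None of the 38 passed the test, 0 had an unadjusted p under 0.05 (0.574% of all genes did), 0% of all genes were called, and DESeq2 called 0 members. The member of lowest p was Gclc, with a response of log2 0.93 in KO and 0.72 in WT (difference 0.21, SE 0.19, adjusted p = 1.00). Hmox1 (difference 0.36, SE 0.56) and Nqo1 (0.36, SE 0.82) had the largest differences and Tfrc (-0.17, SE 0.53) the most negative one. All 4 groups enter this difference, so 1 library can move every member: the count above 0 was 23 of 38 without blank KO 2, the library in which Hmox1, Gclm and Slc48a1 were low, and 26 of 38 without R300 WT 2 or without R300 KO 1.

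Outside the 38 members, 123 further genes of these pathways passed the filter, from lists of 129 genes for regulators, glutathione, thioredoxin, NADPH and detoxification, heme, and iron. In the average of the genotypes 2 of 123 were called, both higher, against 3.64% of all genes, and in KO alone, in WT alone and between genotypes 0 of 123 were called. At an unadjusted p under 0.05 there were 12 in KO (7 higher, 5 lower) and 8 in WT (3 higher, 5 lower), against 8.78% and 8.72% of all genes. Ugdh, which makes UDP-glucuronate for glucuronidation, had 140, 154 and 157 CPM in R300 KO against 78.8, 80.9 and 112 CPM in blank KO, and 150, 158 and 155 CPM in R300 WT against 79.9, 79.4 and 114 CPM in blank WT. All R300 libraries lay above all blank libraries, and the R300 libraries with and without Xist were close (average log2 0.75, SE 0.11, adjusted p = 0.00471). Cisd2, an iron-sulfur protein of the endoplasmic reticulum and outer mitochondrial membrane, had 93.7, 97.6 and 88.7 CPM in R300 KO against 80.5, 68.8 and 73.1 CPM in blank KO, and 92.0, 87.1 and 89.3 CPM in R300 WT against 73.3, 69.6 and 76.4 CPM in blank WT. The R300 libraries again lay above all blank ones (average log2 0.31, SE 0.06, adjusted p = 0.0145). By list, the median averaged change was log2 0.22 for the 27 glutathione genes, with 22 above 0, and -0.15 for the 9 regulators, with 2 above 0, while the other 4 lists had medians from -0.04 to 0.04.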

How the data were processed

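Poly(A) RNA of 12 libraries was sequenced after preparation with a NEBNext Ultra kit, per the labels' protocols. The submitters' processing notes name the mm10 genome, HISAT2 (as version 2), the counter featureCounts 2.0.3, the read filter fastp 0.23.4, the quality check FastQC 0.12.1, and DESeq2 1.42.0; their settings are not given in the sources used here. The deposited values are raw counts per gene symbol; the series table equalled the 12 sample files. The 102 rows without a symbol (0.0232% to 0.0328% of a library) were left out.

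Counts were tested with edgeR 4.0.16 in R 4.3.3 (TMM, filterByExpr on the 4 groups, robust quasi-likelihood fit, 1 mean per group, 8 residual degrees of freedom, common biological coefficient of variation 0.267). All 12 libraries entered the fit, 16546 genes were tested in 7 comparisons, and a Benjamini-Hochberg adjusted p under 0.05 in a comparison was called. Fold changes are R300 over blank and KO over WT; p-values measure the spread between these samples, which may be partly technical. The smallest p of an exact permutation test between 2 groups of 3 libraries would be 0.1. The procedure was tested on simulated data. The simulated libraries were independent, with neither the split by Xist nor the near-alike pairs of these data, so that test does not bear on either. Positions and exon lengths come from GENCODE for GRCm38, promoters from RefSeq.

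Same-numbered libraries of blank KO and blank WT deviated together in all 3 pairs (correlations of deviations from the group means over 0.1), those of the other groups compared did not, and the labels do not say what a number marks. The members, lists and tests were chosen with earlier results of these data known. Values per library are given for called members, the regulators, Hmox1, Nqo1, Gclc, Gclm, Srxn1, Txnrd1, Fth1, Ftl1, Slc40a1, Tfrc, Slc48a1, Cd163 and Spic, and the 3 members of lowest p in each direction; Prdx6, Me1 and Gstm1 were added after their values were seen. Alternatives were DESeq2, RLE size factors, library totals, no filter, a fit of the compared groups alone, a replicate block, a term for Xist, 1 library of each near-alike pair and each library left out. Further alternatives chosen after seeing the data are named as such where used.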

Additional observations from a re-analysis of the deposited data

How the results depend on the processing

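Of the counts of called members, 2 in WT became 0 with library totals only, with only the groups compared and with 1 library of each near-alike R300 pair, and 1 with the replicate block. Of all genes, 0.484%, 0.261%, 0.166% and 0.719% were called at these settings, against 0.623% in the main fit. In KO, 2 became 0 with only the groups compared and with 1 library of each near-alike pair (0.275% and 0.201% of all genes called, against 0.834%). DESeq2 called 3 in KO (2.47% of all genes). In the average R300 response, 3 became 5 with DESeq2, 2 with library totals only and with 1 library of each near-alike pair, and 7 (6 higher, Tfrc lower) with a term for the libraries without Xist. Of all genes, 5.94%, 4.13%, 0.936% and 9.02% were called at these settings, against 3.64% in the main fit. Both of the following settings were chosen after seeing the data. Without both blank 2 libraries and with the Xist term, the counts were 3 in WT (2 higher), 6 in KO (5 higher) and 7 in the average R300 response (6 higher), Keap1 being the lower one in each. Of all genes, 4.62%, 6.26% and 15.1% were called there. For KO against WT the counts were 1 in blank, 1 with R300 and 2 in the average (0.441%, 1.1% and 2.76% of all genes). Gstm1 was the lower one in each, and Gsto1 was higher in the average. With the 8 libraries with Xist, the average R300 response had 6 (4 higher, Tfrc and Cd163 lower) and that in KO 3 (Tfrc lower), against 6.04% and 1.74% of all genes. Leaving out 1 library gave 0 to 2 in WT, 0 to 3 in KO, 2 to 5 in the average R300 response (Tfrc lower in both only without R300 KO 3), and 0 in the comparisons between genotypes and in the interaction. In those fits 0.189% to 0.791% of all genes were called in WT, 0.263% to 1.01% in KO and 1.82% to 4.99% in the average R300 response. Some of these fits held fewer libraries, and the cause of the shifts was not tested.

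Among the changes of single genes that were followed over the alternatives, signs turned for 4 uncalled genes. Interactions were not followed in this way, and neither were most members between genotypes in blank. The counts above 0 given earlier show that further members changed sign there. Log2 changes with 1 library left out ran from -0.01 (without blank WT 3, and also without both blank 2 libraries with the Xist term) to 0.36 for Gclm in WT. For Keap1 in WT they ran from -0.35 to 0.02 (without blank WT 1). Between genotypes they ran from -0.55 to 0.26 (without blank WT 3) for Gstm1 in blank, from -0.64 to 0.09 (without R300 WT 2) for Gstm1 with R300, and from -0.04 (without R300 WT 2) to 0.89 for Me1 with R300.

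Deviations of same-numbered libraries correlated from 0.614 to 0.687 between blank KO and blank WT, where the block called 0 members. They ran from -0.755 to 0.464 between R300 KO and R300 WT and from 0.020 to 0.693 in KO and -0.555 to 0.439 in WT between R300 and blank, so those numbers were not taken as a pairing. With the replicate block on all 12 libraries, 1 member was called in WT, 2 in KO and 3 in the average R300 response (0.719%, 0.852% and 4.03% of all genes). A fit of only the groups compared was not made for the interaction and the averages, which need all groups. Genes at a few CPM (Me1, Cd163, Spic, Slc40a1) rest on as few as 35 counts a library.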

Other observations

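The 4 libraries without Xist, 1 in each group, differed from the 8 others in several members whatever the treatment. Every library without Xist lay below every library with Xist for 5 of 38 members: Gsr (127 to 150 CPM against 172 to 217 CPM), Sod2 (398 to 411 CPM against 482 to 720 CPM), Abcc1 (331 to 389 CPM against 408 to 613 CPM), Slc40a1 (3.82 to 4.50 CPM against 4.66 to 6.70 CPM) and Cd163 (1.90 to 2.61 CPM against 2.82 to 7.53 CPM). Every library without Xist lay above every library with Xist for 3 of 38: Ftl1 (5167 to 5809 CPM against 3179 to 4611 CPM), Blvra (68.8 to 71.7 CPM against 51.3 to 62.2 CPM) and Gstm1 (117 to 149 CPM against 58.1 to 78.6 CPM). These ranges were looked for after the data were seen and carry no test. The share of all genes that separate in this way was not counted, so the counts cannot be read as particular to the members.

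Within the libraries without Xist, R300 over blank was 1.57 in KO and 1.44 in WT for Gclc and 1.52 in KO and 1.35 in WT for Srxn1; in the libraries with Xist the ratio of means was 2.08 in KO and 1.76 in WT for Gclc and 1.96 in KO and 1.90 in WT for Srxn1. For Hmox1 the ratios were 1.13 in KO and 0.995 in WT without Xist, and 1.77 in KO and 1.36 in WT with Xist. Each ratio without Xist compares 1 library with 1 library.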
